A study of Mus musculus with 5 samples.

Results

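The neighbours of Dysf on mouse chromosome 6 were examined in primary myoblasts that had been differentiated for 72 h. Dysf encodes dysferlin, a membrane protein of muscle, and its RNA was more abundant in Elmo2EID/EID than in WT myoblasts. The question was whether the genes around it rose or fell with it along the chromosome. A gene was a neighbour if it was annotated as protein coding, started on chromosome 6 between 82008590 and 86211060 (GRCm38), which is 2 Mb beyond each end of Dysf, and reached 5 normalized counts in 1 or more of the samples. Dysf itself and Hk2, which encodes hexokinase 2, were left out and serve as reference values. The window held 68 protein-coding rows, and 48 of them were neighbours, out of 54232 rows in the table and 18156 genes tested. The members were thus chosen by their position and by the limit of 5 on their measured level, and the window was drawn around Dysf because of its own difference, which is given as a description.

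The libraries came from 3 WT and 2 Elmo2EID/EID myoblast samples, the latter called EID in the labels. These mice are homozygous for a knock-in mutation in the inhibitory domain of ELMO2, a scaffold that works with DOCK exchange factors to activate the GTPase RAC1, and the altered protein is made in the whole organism and not only in muscle. Myoblasts were taken from leg muscles with magnetic beads, and both groups were differentiated in horse serum. The study took primary myoblasts from mice of 6 to 8 weeks of age, and all its animals were on a mixed background of C57BL6 and another laboratory strain. The sex of the donors is not given in the sources used here. The labels do not say whether the samples of a group came from separate mice. The study states in general that its primary cells were typically isolated from 3 mice, without naming these libraries. If the samples did not come from separate mice, the p-values measure only a technical spread between these samples. The recovered totals ranged from 35021856 to 49381544 reads, with a floor of 3 reads per library that corresponds to between 2.65 and 3.73 normalized counts. All 8 skeletal myotube markers were detected and none differed between the groups by limma, with summed levels of 1439238 to 1645801 normalized counts in WT and 1362466 to 1563394 in Elmo2EID/EID. The summed endothelial markers were at 695.5 to 2081 normalized counts in WT, with WT replicate 2 lowest, and at 3887 and 5821 in Elmo2EID/EID. Schwann cell markers summed to 16234 to 17150 in WT and 16027 and 15661 in Elmo2EID/EID, while the median log2 fold change of the 8 markers was 1.01, opposite in sign to the sums, and limma called 0 of them. Macrophage and Langerhans cell markers summed to 39.78 to 71.79 and to 216.4 and 56.48, with Ptprc under 5 in every sample.

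Dysferlin sits in the plasma membrane and in vesicles of muscle fibers, where it takes part in the calcium-dependent resealing of the membrane, and loss of it causes a limb-girdle muscular dystrophy. Its neighbours are no pathway. They are mostly genes that many cell types use, among them subunits of chaperonin, dynactin and the exocyst, enzymes of mitochondria and of sugar and folate metabolism, and chromatin proteins. Genes that lie side by side can share enhancers or promoters.

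The bases upstream of Dysf are shown beside those of Nagk, a neighbour whose groups were apart, to give the sequence context of both genes. They come from RefSeq on GRCm38.p6, are written 5' to 3' on the plus strand, and stop at the annotated start of the gene or of the second RefSeq start of Dysf. Capitals mark CAGCTG, a form of the E-box that myogenic transcription factors prefer, which reads the same on both strands and is included in the wider motif CANNTG.
Dysf, first start, chr6:84008348-84008589: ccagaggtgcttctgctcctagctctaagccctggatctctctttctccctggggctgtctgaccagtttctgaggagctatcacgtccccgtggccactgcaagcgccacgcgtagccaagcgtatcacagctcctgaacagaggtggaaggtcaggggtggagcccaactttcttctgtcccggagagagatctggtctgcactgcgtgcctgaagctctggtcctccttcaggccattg
Dysf, second start, chr6:84019136-84019385: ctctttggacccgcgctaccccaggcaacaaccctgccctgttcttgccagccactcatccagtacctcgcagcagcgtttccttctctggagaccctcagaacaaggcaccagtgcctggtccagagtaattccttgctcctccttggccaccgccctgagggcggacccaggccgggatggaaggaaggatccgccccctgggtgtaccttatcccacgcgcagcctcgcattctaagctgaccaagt
Nagk, chr6:83794750-83794981: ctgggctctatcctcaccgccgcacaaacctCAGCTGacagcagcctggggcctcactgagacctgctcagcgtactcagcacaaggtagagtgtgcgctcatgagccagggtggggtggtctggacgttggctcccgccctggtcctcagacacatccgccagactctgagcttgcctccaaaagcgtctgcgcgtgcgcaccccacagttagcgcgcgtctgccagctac
Over the 250 bases before a RefSeq start, neither start of Dysf held CAGCTG or any CANNTG, and Nagk held 1 CAGCTG, which begins 201 bases before the annotated start of the gene. RefSeq gave 48 promoters for 38 of the neighbours. CAGCTG was found in 6.25% of them, those of Cyp26b1, Nagk and Wdr54, and in 13.0% of all 32851 promoters, and CANNTG in 64.6% and 66.2%. These are matches of letters and do not show binding.

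Dysf (ENSMUSG00000033788, 84008590 to 84211060 on the plus strand) had 10596, 11201 and 9953 normalized counts in WT and 25968 and 26828 in Elmo2EID/EID, a log2 fold change of 1.32 (95% interval 1.15 to 1.49). Hk2, at -1.28 Mb from the start of Dysf, had 4249, 4713 and 4074 against 4173 and 3798 normalized counts, with overlapping groups. All log2 fold changes compare Elmo2EID/EID with WT, with 1 added to each normalized count. None of the 48 neighbours passed an adjusted p of 0.05 by limma in either direction, where 1.09% of all genes tested were called higher and 1.14% lower. Without adjustment, 5 neighbours (10.4%) had a limma p under 0.05 and were higher, against 6.93% of all genes tested, and 8 (16.7%) were lower, against 8.31%. The 8 include Slc4a5, which reached the limit of 5 only in WT, where it was higher, and 7 remain without it. With the replicate number as a block, limma again called 0 neighbours (0.639% higher and 0.595% lower over all genes). The test of edgeR called 0 neighbours in either direction (1.12% higher and 1.13% lower over all genes). The DESeq2 Wald test called Nagk and Tprkb higher and Dok1 lower, 3 of the 47 neighbours to which it gave an adjusted p, where it called 2.38% of all genes higher and 3.18% lower.

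The summed level of the neighbours did not separate the groups. Their summed normalized counts were 62298, 59190 and 61578 in WT, compared with 61322 and 61613 in Elmo2EID/EID, a ratio of means of 1.01, with both Elmo2EID/EID samples inside the WT range. Dysf amounted to 17.0, 18.9 and 16.2 counts per 100 counts of its neighbours in WT and to 42.3 and 43.5 in Elmo2EID/EID. The median log2 fold change of the 48 neighbours was -0.03, and 23 were above and 25 below 0. The lower and upper quartiles of the neighbours were -0.18 and 0.10. Over all genes tested the median was 0.01 and the quartiles were -0.16 and 0.16.

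**Figure D1:**
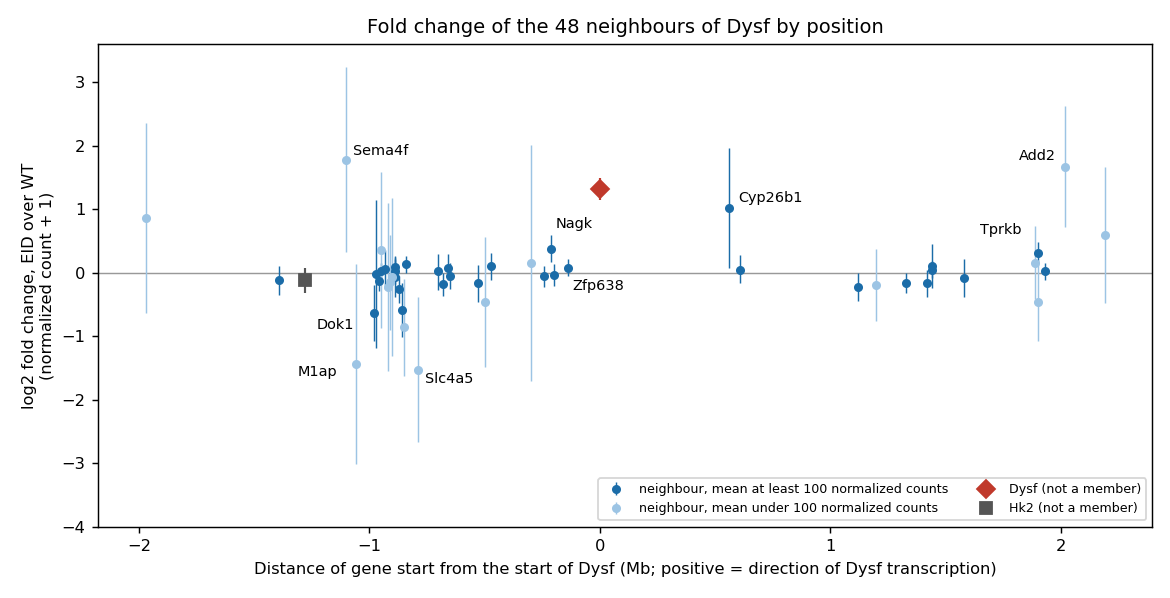
The log2 fold change of each neighbour (y axis, Elmo2EID/EID over WT, bars show the 95% limma interval) against the distance of its start from that of Dysf in Mb (x axis). Dysf stands at 1.32, while the neighbours averaging 100 normalized counts or more (dark points) lie near 0, from -0.64 to 1.02, and the wide intervals belong mostly to genes with fewer counts (light points).

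A p that misses the threshold does not show that a gene stayed level, so the intervals were read as well. For 40 of the 48 neighbours the upper end of the 95% interval lay under 1.15, the lower end of the interval of Dysf. The other 8 were Eva1a, Sema4f, Dqx1, Mrpl53, Vax2, Cyp26b1, Add2 and Tgfa, and of these Cyp26b1 was the only one averaging 100 normalized counts or more over all samples. For 28 of the 32 neighbours at that level, the whole interval lay between -1 and 1. Changes smaller than these intervals were not detectable with 5 samples.

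Zfp638, a zinc finger protein of the nucleus, is the neighbour nearest before Dysf, on the same strand, at 83867109 to 83989550. It had 4245, 4136 and 4220 normalized counts in WT and 4395 and 4461 in Elmo2EID/EID. Both Elmo2EID/EID samples were above the WT samples, by little, with a log2 fold change of 0.08 (SE 0.06, limma adjusted p = 0.589). Paip2b, which restrains translation by binding the poly(A)-binding protein, had 1775, 1895 and 1722 normalized counts in WT and 1699 and 1795 in Elmo2EID/EID. Its groups overlapped, and the interval of its log2 fold change was -0.21 to 0.13.

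Beyond the other end of Dysf, Cyp26b1 (ENSMUSG00000063415) comes first, at 84571414 to 84593908 on the minus strand. It encodes an enzyme that breaks down retinoic acid. Its normalized counts were 219.1, 90.86 and 237.4 in WT, compared with 348.8 and 332.6 in Elmo2EID/EID. The groups did not overlap, WT replicate 2 was far below the rest, and the log2 fold change was 1.02 (SE 0.40, limma adjusted p = 0.29). Without WT replicate 2 the log2 fold change was 0.58. The summed endothelial markers were also lowest in WT replicate 2 and higher in both Elmo2EID/EID samples. All 12 of these markers were detected, 0 of the 12 were called by limma, and their median log2 fold change was 2.10. The summed fibro-adipogenic markers were lowest in WT replicate 2 too, at 4511 normalized counts. The part of either list in the level of Cyp26b1 was not tested. In bulk samples, fewer cells of a type and less RNA per cell cannot be told apart. Exoc6b, a subunit of the exocyst, which tethers vesicles to the plasma membrane, lies next to Cyp26b1. It had 1245, 1072 and 1268 normalized counts in WT and 1269 and 1201 in Elmo2EID/EID, with overlapping groups (log2 fold change 0.05, SE 0.09).

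After Cyp26b1, the highest log2 fold changes among neighbours averaging 100 normalized counts or more were those of Nagk and Tprkb. Nagk (ENSMUSG00000034744), the kinase that returns free N-acetylglucosamine to use, lies 0.21 Mb before Dysf at 83794982 to 83804018. Its normalized counts were 418.8, 443.1 and 447.5 in WT, compared with 583.1 and 553.1 in Elmo2EID/EID, so each Elmo2EID/EID sample was above each WT sample. The ratio of means was 1.30 and the log2 fold change 0.38 (SE 0.09, limma adjusted p = 0.0957, 0.10 by edgeR and 0.0442 by DESeq2). Tprkb (ENSMUSG00000054226), a subunit of the KEOPS complex, which modifies transfer RNA, lies 1.90 Mb beyond the start of Dysf at 85911865 to 85930284. It had 876.5, 876.0 and 881.3 normalized counts in WT and 1081 and 1098 in Elmo2EID/EID, again with no overlap. Its ratio of means was 1.24 and its log2 fold change 0.31 (SE 0.07, limma adjusted p = 0.0825, 0.0862 by edgeR and 0.0237 by DESeq2). Both intervals, 0.17 to 0.59 for Nagk and 0.15 to 0.48 for Tprkb, lay far under that of Dysf. Tprkb overlaps Nat8f1 on the other strand, and the strand was used in counting.

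Dok1 had the lowest log2 fold change among neighbours averaging 100 normalized counts or more. It (ENSMUSG00000068335, 83030934 to 83033471 on the minus strand) encodes a docking protein that dampens signals of tyrosine kinases and lies 0.98 Mb before Dysf. It had 566.3, 406.1 and 553.2 normalized counts in WT and 283.5 and 366.7 in Elmo2EID/EID. The groups did not overlap, although WT replicate 2 came close, and the log2 fold change was -0.64 (SE 0.18, limma adjusted p = 0.165, 0.152 by edgeR and 0.0388 by DESeq2). Wdr54, a WD repeat protein 0.86 Mb before Dysf, had 132.5, 116.7 and 124.3 normalized counts in WT and 73.34 and 92.34 in Elmo2EID/EID, with no overlap and a log2 fold change of -0.59 (SE 0.18, limma adjusted p = 0.178).

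Smaller differences of the same direction were seen in Rtkn, Spr and Mob1a, and none of them passed the test. Rtkn, an effector of the GTPase RHOA, had 1156 ± 89.4 normalized counts in WT (SD, n = 3) and 962.3 and 961.9 in Elmo2EID/EID (log2 fold change -0.26, SE 0.09). Spr encodes sepiapterin reductase, the last enzyme of tetrahydrobiopterin synthesis, and had 576.9, 533.9 and 590.5 normalized counts in WT and 473.1 and 495.8 in Elmo2EID/EID (log2 fold change -0.23, SE 0.09). Mob1a, which activates the LATS kinases of the Hippo pathway, had 2290, 2034 and 2061 against 1890 and 1862 normalized counts (log2 fold change -0.18, SE 0.08). In each of these genes both Elmo2EID/EID samples lay below the WT samples. Pradc1 had the fifth highest log2 fold change at this level (0.10), yet its groups overlapped, with 212.9, 210.9 and 223.8 normalized counts in WT and 203.9 and 263.6 in Elmo2EID/EID.

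**Figure D2:**
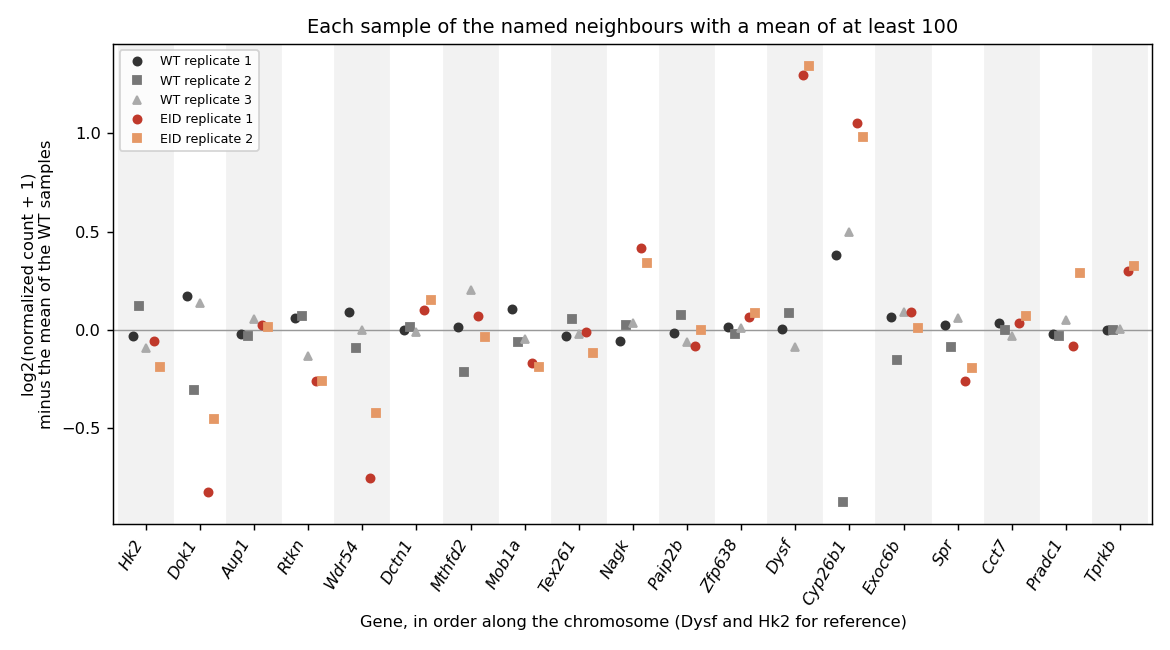
Each sample of the named neighbours averaging 100 normalized counts or more (x axis, in order along the chromosome), as log2(normalized count + 1) minus the mean of the 3 WT samples (y axis), with Dysf and Hk2 for reference. Both Elmo2EID/EID samples stand apart from WT in Dysf and in Cyp26b1, where WT replicate 2 is low, and, by less, in Nagk and Tprkb. They lie below every WT sample in Dok1 and Wdr54, with log2 fold changes of -0.64 and -0.59, and by less in Rtkn, Spr and Mob1a.

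Per kb of exon, the neighbours with the highest WT means were Cct7, Mthfd2, Dctn1, Aup1 and Tex261, at 1410, 1370, 1190, 983 and 651 normalized counts per kb in WT, against 1270 for Dysf in WT and 3170 in Elmo2EID/EID. Cct7, a subunit of the chaperonin that folds actin and tubulin, had 9773, 9538 and 9342 normalized counts in WT and 9785 and 10032 in Elmo2EID/EID. The groups did not overlap, but Elmo2EID/EID replicate 1 was close to WT replicate 1 (log2 fold change 0.05, interval -0.08 to 0.19). Dctn1, a subunit of dynactin, which couples cargo to the motor dynein, had 7756, 7840 and 7702 against 8315 and 8627 normalized counts (log2 fold change 0.13, SE 0.06, limma adjusted p = 0.357). Mthfd2, a folate enzyme of mitochondria, had 4780, 4073 and 5436 normalized counts in WT, and both Elmo2EID/EID samples, 4963 and 4605, lay inside that range. Aup1, a protein of the endoplasmic reticulum and lipid droplets, and Tex261, a protein of the early secretory pathway, had log2 fold changes of 0.02 and -0.06 with overlapping groups. Per kb, Dysf was below Cct7 and Mthfd2 in WT and above every neighbour in Elmo2EID/EID.

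**Figure D3:**
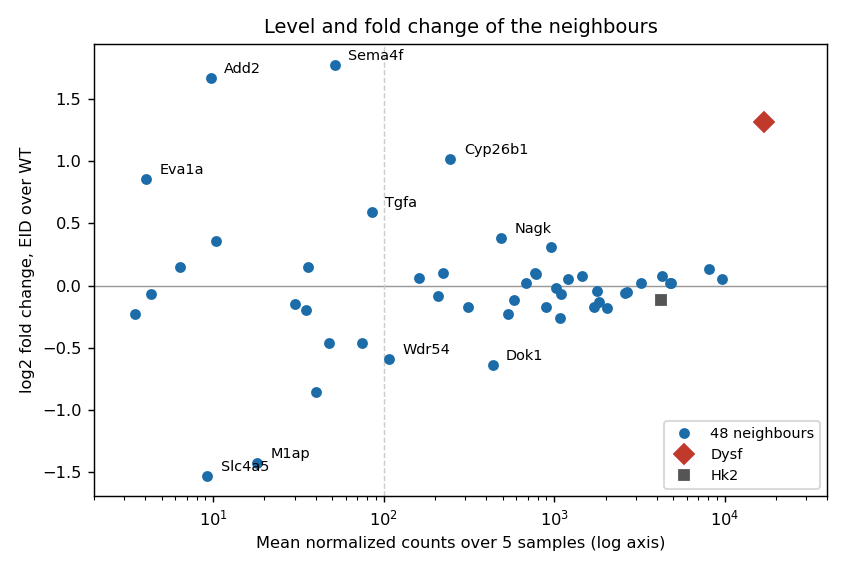
The log2 fold change of each neighbour (y axis) against its mean normalized counts over the 5 samples (x axis, log scale), with Dysf and Hk2, and a dashed line at a mean of 100. Above that mean the neighbours lie between -0.64 and 1.02, below it between -1.53 (Slc4a5, which reached the limit of 5 in WT only) and 1.78, and Dysf has both a high level and a large change.

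By role, no group of neighbours held a call by limma. Of 6 mitochondrial genes, 3 were lower without overlap (Htra2, Dguok and Sfxn5) and none higher, and the median log2 fold change was -0.10. Of 4 genes for RNA and protein biogenesis (Paip2b, Zfp638, Cct7 and Tprkb), 3 were higher without overlap, with a median of 0.06. Of 7 genes for chromatin, DNA and transcription, 1 was higher and 2 were lower without overlap, with log2 fold changes from -0.23 to 0.15. Tet3, which oxidizes methylated cytosine in DNA and was picked after its values were seen, had 2782, 2875 and 2480 normalized counts in WT and 2738 and 2488 in Elmo2EID/EID, within the same range. Of 11 genes for vesicle traffic, membrane and cytoskeleton, 2 were higher and 2 lower without overlap, with a median of 0.02. Of 5 metabolic enzymes and transporters, 2 were higher and 2 lower, and of 6 genes for signalling and matrix, 1 was higher and 2 were lower. Of the 9 neighbours in no list, 1 was higher and 3 were lower without overlap. In all, 10 of the 48 neighbours were higher and 14 lower without overlap between the groups, which is 20.8% and 29.2%, where 16.7% and 15.9% of all genes tested were so. Slc4a5, a member only through its WT values, is among the 14 and among the 2 lower metabolic genes, and 13 are lower without it. Of the 24 without overlap, 13 had a log2 fold change of size under 0.25 and 11 a larger one. Over all members, 32 of the 48 neighbours (66.7%) had a log2 fold change of size under 0.25, against 62.3% of all genes tested and 68.4% of the protein-coding ones.

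The members with few counts gave the largest fold changes, and those described here were picked after their values were seen. Sema4f, a semaphorin, had 24.74, 10.10 and 53.45 normalized counts in WT and 84.96 and 84.27 in Elmo2EID/EID, a log2 fold change of 1.78 (SE 0.61, limma adjusted p = 0.234). As in Cyp26b1, the lowest sample was WT replicate 2, as it was for the summed endothelial and the summed fibro-adipogenic markers, whose part was not tested. Of the 48 neighbours, 23 had their lowest WT value in that replicate. Add2, which encodes beta-adducin of the membrane skeleton, had 3.534, 4.487 and 6.215 against 16.10 and 17.93 normalized counts (log2 fold change 1.67, SE 0.40, limma adjusted p = 0.0995). Its WT values were near the floor. Slc4a5, a bicarbonate transporter, went the other way, with 7.068, 15.70 and 16.16 normalized counts in WT and 3.577 and 3.586 in Elmo2EID/EID, near the floor. It reached the limit of 5 in WT samples only, so it is a neighbour only through the group in which it was higher.

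Loxl3 and Actg2, also picked after their values were seen, varied widely within the groups, which overlapped. Loxl3, a lysyl oxidase-like enzyme that cross-links matrix, had 1670, 493.5 and 1002 normalized counts in WT and 687.7 and 1243 in Elmo2EID/EID. The summed fibro-adipogenic markers ran in the same order over the samples, with 18864, 4511 and 9137 normalized counts in WT and 8303 and 16130 in Elmo2EID/EID (6 of 8 markers tested, 0 called, Lum and Pi16 under 5 in every sample), and their part in the spread of Loxl3 was not tested. Actg2, the gamma actin of smooth muscle, had 55.66, 78.52 and 115.6 against 87.64 and 37.65 normalized counts. The summed smooth muscle and pericyte markers were at 56378, 60966 and 45300 in WT, compared with 49113 and 48357 in Elmo2EID/EID, so they were lowest in WT replicate 3, where Actg2 was highest. Of the 9 markers 8 were tested, limma called 2 lower, where it called 1.14% of all genes lower, and Kcnj8 was under 5 in every sample.

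Along the position, neighbours with values above and below 0 alternated on both sides of Dysf. The 33 neighbours that start before Dysf had a median of -0.05 and the 15 that start after it a median of 0.05. Within 0.5 Mb of its start the median was 0.08 over 7 neighbours, from 0.5 to 1 Mb it was -0.06 over 24, and beyond 1 Mb it was 0.02 over 17. Distances were taken between gene starts, and all 7 of the nearest range start before Dysf. Cyp26b1 and Exoc6b, 0.56 and 0.61 Mb beyond the start of Dysf, fell in the second range, although Dysf itself spans 202 kb. Spearman's rho between the log2 fold change and the distance from the start of Dysf, on either side, was 0.08 over the 48 neighbours. It was 0.19 with the position itself, a description across genes that share their libraries. The sign changed often in going along the chromosome, with 25 runs of one sign and at most 4 neighbours in a run. Neighbours on the strand of Dysf (25 genes) had a median of 0.02 and those on the other strand (23 genes) a median of -0.05. The size of the log2 fold change was smaller in genes of higher level, with a rho of -0.63 between size and mean normalized count.

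**Figure D4:**
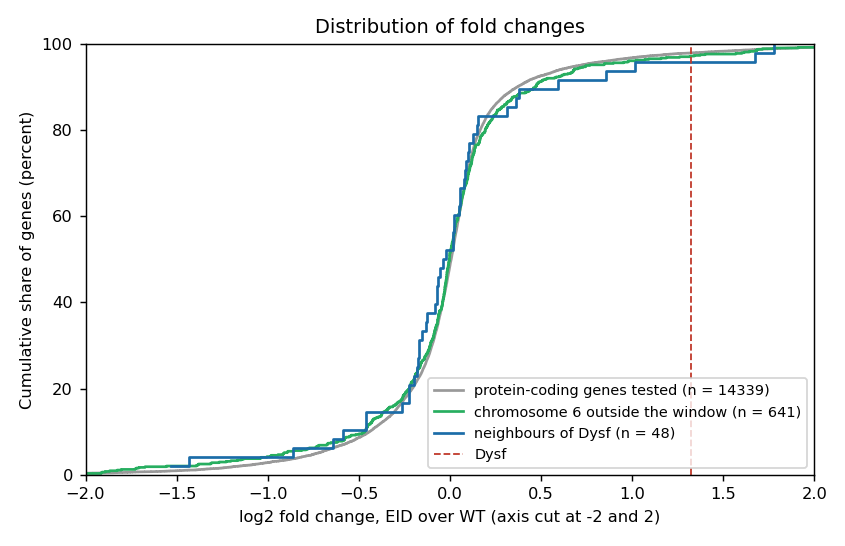
The cumulative share of genes (y axis, percent) by log2 fold change (x axis, cut at -2 and 2) for the 48 neighbours, the 641 other protein-coding genes tested on chromosome 6 and all 14339 protein-coding genes tested. The 3 curves cross 50% close to 0, at -0.03, -0.00 and 0.01, and the dashed line for Dysf stands at 1.32.

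Of the 68 protein-coding rows of the window, 18 stayed under 5 normalized counts in every sample, and 12 of them were at 0 throughout, with no read recovered in any library. In a single library, 0 reads cannot be told from an expected count of up to 3, and over all libraries together the bound is lower. A value of 0 throughout does not show that a gene was silent. These 12 include 6 genes of the Nat8 family of acetyltransferases and Clec4f and Cd207, lectins of liver macrophages and Langerhans cells. The 3 neighbours just inside the limit were Lbx2, Mrpl53 and Eva1a, with highest values of 5.301, 6.730 and 9.861 normalized counts. Just under it were Ccdc142, Egr4 and Fbxo41, at 3.59, 2.49 and 1.24. Eva1a passed the limit in an Elmo2EID/EID sample only, and Lbx2, Mrpl53 and Slc4a5 in WT samples only. Mrpl53, a protein of the mitochondrial ribosome, is overlapped on its own strand by Gm42688, itself a neighbour, which also overlaps Ccdc142, in the gene models used here, so that reads of these 3 genes may have been set aside as ambiguous and their levels are uncertain.

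The window also held 14 genes of other biotypes that reached the limit, and 4 of them, picked after their values were seen, are described here without a test. Spr-ps1, a transcribed unprocessed pseudogene at 85152621 to 85156223, had 0, 1.122 and 0 normalized counts in WT and 6.260 and 11.65 in Elmo2EID/EID. It reached the limit of 5 only through Elmo2EID/EID, in which it was higher, and WT was at the floor, so no test or fold is given. Antisense transcripts within Dysf, Gm33024 and Gm15475, were at 8.974 normalized counts or less in every sample, and Gm15475 reached the limit in Elmo2EID/EID samples only. Ptges3-ps was the most abundant of the 14, with 278.3, 236.7 and 302.1 against 288.9 and 286.9 normalized counts.

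Outside the window, the nearest genes on chromosome 6 that limma called were looked up after the values were seen. Beyond Dysf, Antxr1, a receptor that binds collagen, starts 3.13 Mb away and fell from 2092, 1936 and 1811 normalized counts in WT to 948.0 and 725.3 in Elmo2EID/EID (log2 fold change -1.23, SE 0.13, limma adjusted p = 0.00658). Kbtbd12, a kelch repeat protein, starts 4.54 Mb away and rose from 382.6, 463.3 and 344.3 to 893.4 and 997.8 normalized counts (log2 fold change 1.26, SE 0.14, limma adjusted p = 0.00812). On the other side the nearest was Gm9008, at -7.51 Mb from the start of Dysf, at or under the floor in WT and at 49.19 and 23.31 normalized counts in Elmo2EID/EID. It was called by limma, but it entered the test only through Elmo2EID/EID, in which it was higher. Next on that side was Dnah6, a dynein heavy chain, at -10.99 Mb, which rose from 14.14, 11.22 and 26.10 normalized counts in WT to 99.27 and 107.6 in Elmo2EID/EID (log2 fold change 2.61, SE 0.37, limma adjusted p = 0.0231). Of these 4 calls, 3 were higher and 1 was lower in Elmo2EID/EID, where limma called 1.09% of all genes tested higher and 1.14% lower. Without Gm9008, those higher were Kbtbd12 and Dnah6, and Antxr1 was lower.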

How the data were processed

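Sequencing of poly-A RNA from WT (n = 3) and Elmo2EID/EID (n = 2) myoblasts gave 1 table. The authors aligned read pairs untrimmed to GRCm38 with STAR (2.5.1b per the labels), counted uniquely mapped reads on the reverse strand with featureCounts (1.4.6) and deposited a signal per gene, the reads divided by the DESeq2 (1.34.0) size factor of the sample. Reads were recovered by dividing each column by its smallest positive value, and 100.0% of positive values came out whole within 0.01. Positions and biotypes came from GENCODE M21 on GRCm38, which matched 54165 of 54232 identifiers. The study's methods name another Ensembl release for the counting, so levels per kb and overlaps between genes rest on models that may differ from those counted.

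The main test was limma (3.58.1, R 4.3.3) with a mean-variance trend on log2(normalized count + 1), two-sided, over 18156 genes, with Benjamini-Hochberg adjustment over all of them and no replicate block. The authors' count test suits counts, so edgeR (4.0.16) and DESeq2 (1.42.0) were run on the recovered reads as alternatives, beside other pseudocounts, filters, scalings, windows and samples left out. Named neighbours were those called, the 5 largest changes each way with a mean of at least 100, the 3 nearest on each side, the 3 lowest past the limit and the 5 highest per kb; others are said to be picked later. The members and lists were chosen with earlier results of these data known.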

Additional observations from a re-analysis of the deposited data

How the results depend on the processing

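With limma, 0 neighbours were called higher and 0 lower, and this held under the pseudocounts of 0.1 and 5, both other filters, equal totals, quantile normalization, limma without the trend, edgeR and the window of 1 Mb on each side. Limma without the trend and without the filter called few genes anywhere (0.534% and 0.358% higher, 0.259% and 0.208% lower). The DESeq2 Wald test called 2 higher and 1 lower. In a window of 5 Mb on each side 1 was called higher and 1 lower, Kbtbd12 and Antxr1, because the wider window takes them in. Leaving out each sample in turn gave 0 to 0 calls in either direction, but these fits called between 0.0991% and 0.903% of all genes higher and between 0.0881% and 0.942% lower, so a count of 0 among 48 shows no stability, with a single Elmo2EID/EID sample assumed to vary like WT where 1 of the pair was left out. The median log2 fold change of the neighbours lay between -0.07 and 0.01 over the 18 alternatives, and between -0.02 and 0.01 with samples left out. The replicate numbers of the labels did not pair the samples (correlation of the deviations -0.201 across 15107 genes): with them as a replicate block 0 neighbours were called higher and 0 lower, and over all genes 116 were called higher and 108 lower, in place of 197 and 207. With the numbers crossed, chosen after the data were seen, 1 neighbour was called higher (Sema4f) and 1 lower (Dok1), where 2.62% of all genes were called higher and 3.11% lower. With samples left out, Eva1a ranged most among named neighbours, from 0.08 without EID replicate 2 to 1.64 without EID replicate 1 on the log2 scale. Among those averaging 100 normalized counts or more it was Cyp26b1, from 0.58 without WT replicate 2 to 1.26 without WT replicate 3, and Pradc1 went from 0.10 to -0.08 without EID replicate 2. Of the 16 neighbours with a mean under 100 normalized counts, 7 had an interval that reached the lower end of that of Dysf.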
